A study of Mus musculus with 12 samples.

Results

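The miR-17-92 cluster is a group of miRNA hairpins cut from a single long non-coding transcript, and 10 of its mature products were followed in mouse kidney of the neonatal period at day 8 and day 0. The members were taken by name: miR-17-5p, miR-17-3p, miR-18a-5p, miR-18a-3p, miR-19a-3p, miR-20a-5p, miR-20a-3p, miR-19b-3p, miR-92a-3p and the locus-named miR-92a-1-5p. All 10 were found among the 1652 mature names in the deposited table, and all 10 passed the filter on low values, as did 564 names in all. The day 8 group held 6 kidney libraries and the day 0 group 6, all from untreated wild-type (WT) mice. The labels give no strain, sex or pooling and do not tie libraries to separate animals, so the p-values measure the spread between these libraries, which may in part be technical. The series looked for miRNAs that differ over the neonatal period and could act on the mineralocorticoid receptor (MR), the receptor for aldosterone.

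A miRNA hairpin is cut into a duplex whose strands, named 5p and 3p for the side of the hairpin they come from, can each load into an Argonaute protein. The loaded strand pairs with messenger RNAs mainly through its seed, bases 2 to 8, and lowers their translation and stability. The cluster is transcribed under Myc and E2F factors and is known for promoting proliferation and survival. In mice, its loss from nephron progenitors, the embryonic cells that form the filtering units of the kidney, is known to reduce their proliferation and the number of nephrons, and nephron formation in the mouse ends within days of birth.

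The transcript is annotated as Mir17hg, a long non-coding gene of 2 exons on the plus strand of chromosome 14, at chr14:115042879-115046727 (GRCm38, GENCODE M21). All 6 hairpins lie within 836 bases of its exon 2, at chr14:115043671-115044506, in the order miR-17, miR-18a, miR-19a, miR-20a, miR-19b-1 and miR-92a-1. The mature sequences of the 10 members are given 5′ to 3′ because the 6 main strands fall into 4 seed families, which shape the targets they share. The remaining 4 are partner strands. They are credited to RefSeq (GRCm38.p6), where all 10 names matched, and the seed is in capitals.
miR-17-5p: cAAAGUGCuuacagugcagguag
miR-20a-5p: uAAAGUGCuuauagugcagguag
miR-18a-5p: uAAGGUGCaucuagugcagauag
miR-19a-3p: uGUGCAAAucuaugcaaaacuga
miR-19b-3p: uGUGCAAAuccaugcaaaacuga
miR-92a-3p: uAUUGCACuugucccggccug
miR-92a-1-5p: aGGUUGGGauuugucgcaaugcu
miR-17-3p: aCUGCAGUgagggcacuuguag
miR-18a-3p: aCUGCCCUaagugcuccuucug
miR-20a-3p: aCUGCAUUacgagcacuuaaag
miR-17-5p and miR-20a-5p share the seed AAAGUGC, known from reporter work on E2f1 and Cdkn1a. miR-18a-5p has its own seed, which differs from that of miR-20a-5p at a single position. miR-19a-3p and miR-19b-3p share GUGCAAA and differ from each other by a single base, U11C (miR-19a-3p first, counted from 1 at the 5′ end). miR-92a-3p carries the seed of the miR-25 family, known for acting on Itga5 and Bcl2l11. The strands miR-17-3p, miR-18a-3p, miR-20a-3p and miR-92a-1-5p come from the other sides of those hairpins.

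miR-19b-3p and miR-92a-3p have identical mature sequences at 2 loci each, the second in the paralogous miR-106a-363 cluster on the X chromosome, so their values sum both sources. miR-19b-3p maps to chr14:115044358-115044380 and chrX:52741991-52742013, and miR-92a-3p to chr14:115044476-115044496 and chrX:52741854-52741874. The other 8 members matched 1 locus each. The 5p strands of those hairpins do differ between loci and were read separately.
miR-92a-1-5p (chromosome 14): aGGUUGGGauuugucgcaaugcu
miR-92a-2-5p (X chromosome): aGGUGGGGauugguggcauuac
miR-19b-1-5p (chromosome 14): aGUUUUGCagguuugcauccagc
miR-19b-2-5p (X chromosome): aGUUUUGCagauuugcaguucagc
Summed over libraries, miR-92a-1-5p had 1725 reads at day 8 and 8353 at day 0, while miR-92a-2-5p had 0 at day 8, which allows up to 3, and 1 at day 0. miR-19b-1-5p had 660 reads at day 8 and 1439 at day 0, against 25 and 21 for miR-19b-2-5p. At both ages, nearly all reads of these locus-specific strands therefore carried the chromosome 14 sequence.

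Values are CPM, the reads of a name per 1000000 miRNA reads of its library, and the libraries held 5.16 to 11.8 M reads at day 8 and 3.37 to 9.05 M at day 0 (M, 1000000). Summed over the 10 members, the cluster took 1.43% ± 0.216 of miRNA reads at day 8 and 2.98% ± 0.239 at day 0 (SD, n = 6 each). Kidney-enriched markers (5 of 5 in the table) summed to between 40479 and 44100.3 CPM at day 8 and between 23203 and 25338 CPM at day 0. Of these, 4 rose at day 8, while miR-196a-5p fell (7504 CPM at day 8 and 12644 CPM at day 0, log2 change -0.75, limma adjusted p = 1.29e-07). Leukocyte markers (5 of 5 in the table) summed to 2885 to 5399 CPM at day 8 and 2307 to 4441 CPM at day 0, but did not move alike. miR-150-5p (log2 change 1.22, limma adjusted p = 8.46e-06) and miR-142a-5p (0.76, limma adjusted p = 0.0234) were higher at day 8. miR-155-5p was lower (-1.13, limma adjusted p = 2.83e-06), and miR-142a-3p and miR-223-3p did not pass. Erythroid markers (2 of 3) summed to 287 to 635 CPM at day 8 and 215 to 782 CPM at day 0. The endothelial pair miR-126a-3p and miR-126a-5p summed to 120604 to 146671 CPM at day 8 and 101241 to 115855 CPM at day 0. Striated muscle markers (3 of 3) summed to 402 to 497 CPM at day 8 and 484 to 1979.9 CPM at day 0, and the liver miRNA miR-122-5p ran from 15.2 to 330.4 CPM at day 8 and from 478 to 3284 CPM at day 0. No marker in the table was at 0 in all libraries of an age, and the part of these cell types in the results was not tested. Fewer cells that make the cluster and less of it per cell cannot be told apart in bulk kidney RNA, and nephron progenitors were not measured as such.

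Day 8 replicate 3, with the fewest reads of its age, held the highest or lowest day 8 level of several members. Its miR-92a-3p level was 229 CPM, against 83.0 to 140.1 CPM in the other 5 day 8 libraries, and its miR-17-5p level was 964 CPM against 528 to 719. Its miR-19b-3p level was 4014 CPM, against 5571 to 7399 in the others, and its miR-19a-3p level 527 against 635 to 1169. Dixon's test marked neither this library nor any other as an outlier for a member (0 of 20 tests). Over the 482 tested names with a RefSeq sequence, the deviation of a library from the median of the others of its age correlated with the GC content of the name at r = 0.33 for this library, at r from -0.47 to 0.45 over all day 8 libraries, and at r from -0.11 to 0.11 over the day 0 libraries (names are not independent replicates). miR-92a-3p, at 57.1% GC, and miR-19a-3p, at 34.8%, hold the extremes among the 10 members. The change between ages correlated with GC content at r = -0.17, and the part of GC content in the results was not tested.

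**Figure D1:**
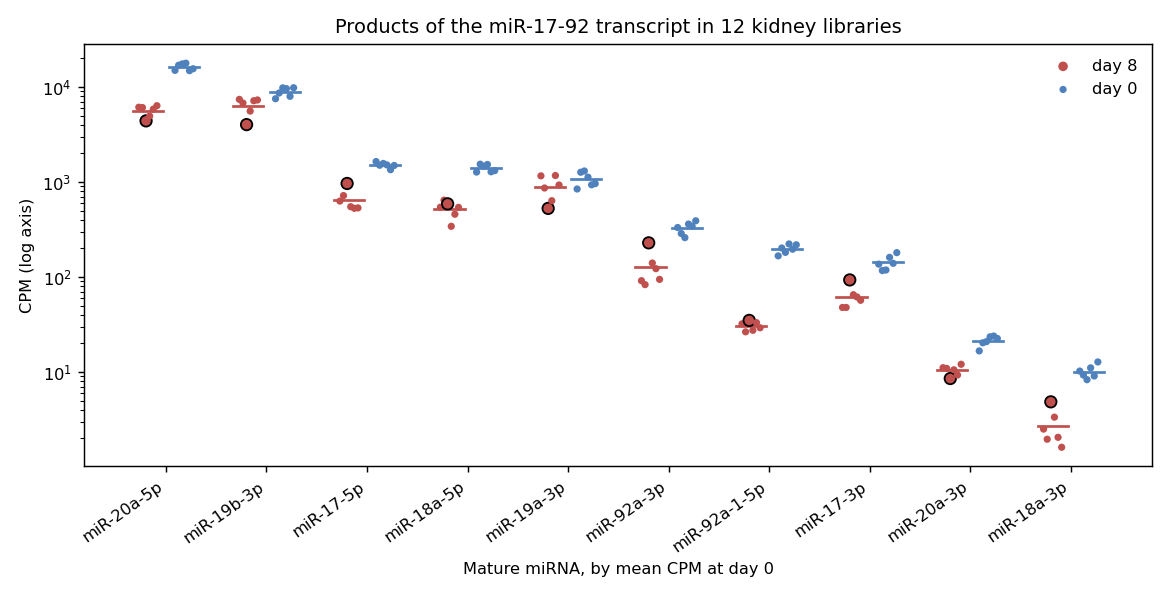
CPM (log axis) of each of the 10 members in the 6 day 8 libraries (red, left) and the 6 day 0 libraries (blue, right), with horizontal lines at the means; the ringed point is day 8 replicate 3. The ages overlap for miR-19a-3p and do not overlap for the other 9 members.

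The first comparison asked which products of the transcript differ between the ages. At day 8, 9 of the 10 members were lower and 0 were higher (limma on log2(CPM + 1) across 564 names, Benjamini-Hochberg adjusted p under 0.05). The direction is common in these libraries: of all names tested, 64.7% were called, 48.2% as lower at day 8 and 16.5% as higher. The 9 members were also those whose 6 day 8 libraries all lay below the 6 day 0 libraries, which 35.1% of names did. The median log2 change of the members was -1.34, against -0.34 for all names. limma-voom also called 9 lower and 0 higher, while edgeR and DESeq2 on recovered reads called 8 lower and 0 higher. Over all 564 names the split depended on the scaling: limma on CPM called 272 lower and 93 higher, edgeR with TMM factors 195 lower and 173 higher, and DESeq2 189 lower and 180 higher. At an unadjusted p under 0.05, limma again had 0 of the 10 members higher.

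The miR-17 and miR-20a guides, which share a seed, both fell. miR-20a-5p, the most abundant member at day 0, ran from 4393 over a median of 5955 to 6349.5 CPM in the day 8 libraries and from 14836 over 16241 to 17788 CPM in the day 0 libraries. The highest day 8 library thus lay far under the lowest day 0 library. Its log2 change was -1.54 (SE 0.0947, limma adjusted p = 5.28e-09), and its place among all names by mean CPM was 38 at day 8 and 17 at day 0. miR-17-5p ran from 528 over 589 to 964 CPM at day 8 and from 1346 over 1506 to 1640.0 CPM at day 0. Its highest day 8 library was replicate 3, and its log2 change of -1.24 (SE 0.134, limma adjusted p = 1.56e-06) was -1.36 without that library.

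miR-18a-5p, known for acting on the matrix gene Ccn2 (CTGF), ran from 341 over 541 to 644 CPM at day 8 and from 1271 over 1389 to 1538 CPM at day 0. All day 8 libraries lay below all day 0 libraries, with a log2 change of -1.45 (SE 0.134, limma adjusted p = 2.62e-07). miR-92a-3p ran from 83.0 over 108 to 229 CPM at day 8 and from 259 over 337 to 390.2 CPM at day 0. Its log2 change was -1.45 (SE 0.211, limma adjusted p = 2.67e-05), and -1.63 without day 8 replicate 3, which held the highest day 8 level.

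The miR-19 strands moved least. miR-19b-3p ran from 4014 over 6963 to 7399 CPM at day 8 and from 7514 over 9121 to 9812 CPM at day 0, so that the highest day 8 library lay just under the lowest day 0 library. Its log2 change was -0.50 (SE 0.140, limma adjusted p = 0.00544), and this call depends on scaling to the library total. After division by TMM factors, which align libraries on the bulk of names and move the median change of all names to -0.0034, its change was -0.11 (limma adjusted p = 0.477). With upper quartile factors it was 0.066 (limma adjusted p = 0.722). miR-19a-3p ran from 527 over 896 to 1169 CPM at day 8 and from 843 over 1042 to 1305 CPM at day 0, and the ages overlapped. Its log2 change was -0.32 (SE 0.191, limma adjusted p = 0.152), and 0.065 with TMM factors (limma adjusted p = 0.774).

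The less abundant strands fell too. miR-92a-1-5p ran from 26.5 over 30.7 to 34.9 CPM at day 8 and from 167 over 199 to 223 CPM at day 0, a tight group at each age with a wide gap between them. Its log2 change of -2.66 (SE 0.106, limma adjusted p = 2.48e-10) was the 9th lowest of the 564 names, and the next lowest member, miR-18a-3p, held place 66. miR-18a-3p was at 2.72 ± 1.20 CPM at day 8 and 10.1 ± 1.61 CPM at day 0 (SD, n = 6 each), from 16 to 39 reads a library at day 8 and 43 to 100 at day 0. Its log2 change was -1.62 (limma adjusted p = 2.77e-06). miR-17-3p was at 62.0 ± 16.8 CPM at day 8 and 142 ± 24.7 CPM at day 0 (SD, n = 6 each; log2 change -1.20, limma adjusted p = 1.41e-05). miR-20a-3p was at 10.4 ± 1.28 CPM at day 8 and 21.3 ± 2.67 CPM at day 0 (SD, n = 6 each; log2 change -0.96, limma adjusted p = 5.99e-06). With TMM factors, 8 of the 10 members were lower and 0 higher, with a median change of -0.95, where 34.2% of all names were lower and 30.3% higher. With upper quartile factors 8 were lower and 0 higher, where 27.8% of all names were lower and 37.8% higher. Both times the 8 were the members other than the miR-19 strands.

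Both further strands of the transcript, which complete the miR-19 hairpins, fell as well. miR-19b-1-5p ran from 7.63 over 12.1 to 15.8 CPM at day 8 and from 28.9 over 33.7 to 40.5 CPM at day 0 (log2 change -1.45, limma adjusted p = 1.85e-06). miR-19a-5p was at 1.56 ± 0.412 CPM at day 8 and 3.26 ± 0.710 CPM at day 0 (SD, n = 6 each; log2 change -0.74, limma adjusted p = 0.00102), from 9 to 19 reads a library at day 8 and 10 to 30 at day 0. With upper quartile factors the call of miR-19a-5p was lost (log2 change -0.35, limma adjusted p = 0.0862).

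**Figure D2:**
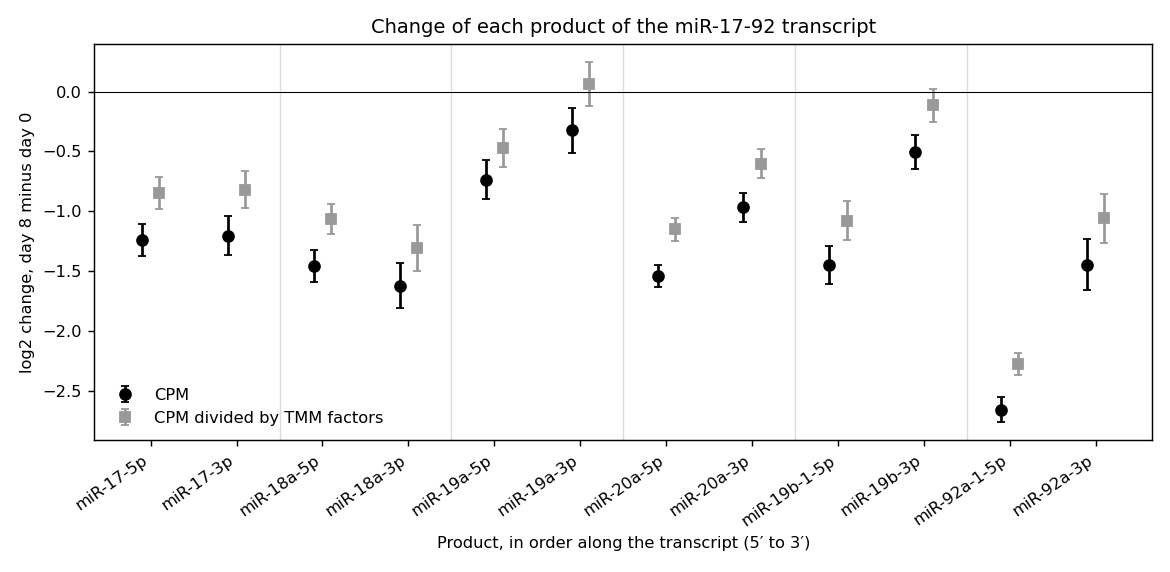
Log2 change (day 8 minus day 0, on log2(CPM + 1)) of 12 products in their order along the transcript, from CPM (black circles) and from CPM divided by TMM factors (grey squares); bars are the standard error from limma, and vertical lines part the 6 hairpins. miR-19a-3p and miR-19b-3p lie nearest to 0 with both scalings, and miR-92a-1-5p lies lowest.

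The order of the levels differed between the ages. At day 8 miR-19b-3p was the most abundant member, with 44.6% of the members' summed CPM, ahead of miR-20a-5p with 39.4%. At day 0 miR-20a-5p led with 54.5%, ahead of miR-19b-3p with 29.8%. The ranges of these 2 did not overlap at day 0 but overlapped at day 8, where miR-19b-3p was the higher in 5 of 6 libraries. miR-19a-3p, miR-17-5p and miR-18a-5p followed in that order at day 8, and each overlapped the next. At day 0 the order was miR-17-5p, miR-18a-5p and miR-19a-3p, where miR-17-5p exceeded miR-18a-5p in 4 of 6 libraries and miR-18a-5p exceeded miR-19a-3p in 6 of 6. At both ages miR-92a-3p followed, then miR-17-3p and miR-92a-1-5p, which changed places between the ages, and then miR-20a-3p and miR-18a-3p. Mature strands are of nearly one length (21 to 23 bases), so CPM was not scaled by length. How well each strand is captured in a library is not known, so a difference in level between strands is a difference in reads.

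The second comparison asked whether products of the same transcript changed alike. The ratio of 2 members within a library cancels the scaling of that library, apart from the 1 CPM added to each value, which bears on the low strands. The log2 ratio of (CPM + 1) of each of the 45 pairs was put to an exact permutation test (two-sided), with p-values adjusted over the 45. The smallest p this allows is 0.00216, or 0.00749 after adjustment. The ratio differed between ages in 23 pairs and did not pass in 22. With a library left out the count ran from 16 to 30, and the run without day 8 replicate 3 gave 30. How often pairs of other names differ was not tested. Since 64.7% of all names were called between the ages, the count is not by itself a trait of this transcript.

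The more abundant strands were split into the miR-19 strands, which moved least in the first comparison, and the rest. This split was not among the planned tests, so counts by it are no separate result. Among the more abundant strands, 0 of the 6 pairs of miR-17-5p, miR-18a-5p, miR-20a-5p and miR-92a-3p passed, with differences in log2 ratio of 0.30 at most. No pair of these passed at an unadjusted p under 0.05 or with limma on the ratios either. An example is miR-18a-5p over miR-20a-5p, with a log2 ratio of -3.45 ± 0.338 at day 8 and -3.54 ± 0.0413 at day 0 (SD, n = 6 each; exact permutation adjusted p = 0.663). At day 0 the spread of that ratio was below that of either strand alone (SD of log2(CPM + 1) 0.128 for miR-18a-5p and 0.116 for miR-20a-5p). At day 8 it was not (SD 0.325 for miR-18a-5p and 0.211 for miR-20a-5p alone).

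The miR-19 strands rose relative to these. In 6 of 8 pairs of a miR-19 strand with one of those 4, the ratio differed between ages. With limma on the ratios, or without day 8 replicate 3, 8 of 8 passed. The pairs of miR-17-5p with miR-19a-3p and with miR-19b-3p were fragile: each passed in 1 of the 12 runs with a library left out. Their exact permutation adjusted p rose to at most 0.0881 and 0.0974. The pairs of miR-18a-5p and of miR-20a-5p with either miR-19 strand passed in 12 of 12. miR-20a-5p over miR-19b-3p had a log2 ratio of -0.16 ± 0.153 at day 8 and 0.88 ± 0.118 at day 0 (SD, n = 6 each), a difference of -1.04 (exact permutation adjusted p = 0.00749, lower in 6 of 6 day 8 libraries than in any day 0 library). miR-19a-3p over miR-20a-5p had a log2 ratio of -2.72 ± 0.298 at day 8 and -3.94 ± 0.162 at day 0 (SD, n = 6 each), a difference of 1.22 (exact permutation adjusted p = 0.00749). Both miR-19 strands over miR-92a-3p missed the threshold, with differences of 1.12 for miR-19a-3p (exact permutation adjusted p = 0.0649) and 0.94 for miR-19b-3p (exact permutation adjusted p = 0.0599). Without day 8 replicate 3 these became 1.45 (exact permutation adjusted p = 0.00779) and 1.26 (exact permutation adjusted p = 0.00443). miR-19a-3p and miR-19b-3p, which share a seed but come from different hairpins, did not pass against each other (difference 0.18, exact permutation adjusted p = 0.221). The miR-19b-3p value also holds reads from its X chromosome copy, whereas miR-19a-3p has 1 locus.

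miR-92a-1-5p stood on the other side. Its ratio to each of the 9 other members was lower at day 8 with no overlap between ages. The differences ran from 1.03 to 2.33 on the log2 scale for the other member over miR-92a-1-5p (exact permutation adjusted p = 0.00749 for each). Of the 10 members it was the 1 whose ratio differed in 9 of 9 pairs, while the miR-19 strands differed in 6 of 9 each.

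**Figure D3:**
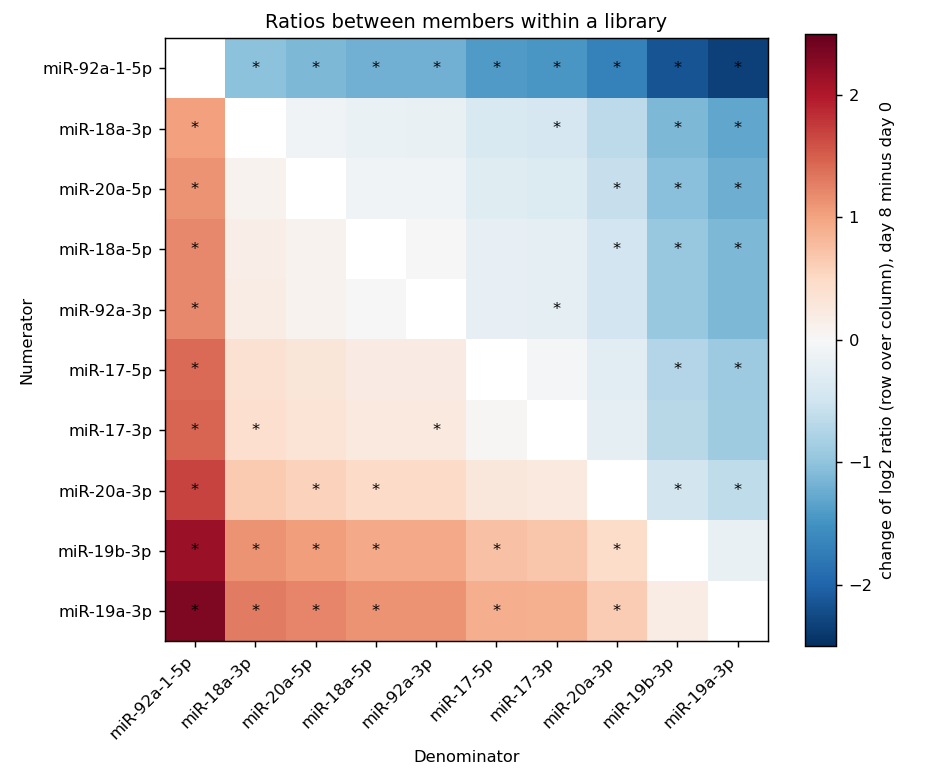
Change of the log2 ratio of (CPM + 1), day 8 minus day 0, for the row member over the column member; red means that the row member gained on the column member at day 8, and a star marks an adjusted exact permutation p under 0.05 over 45 pairs. The row of miR-92a-1-5p is blue and the rows of miR-19a-3p and miR-19b-3p are red against the other 8 members.

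Among the pairs are 4 that join both strands of 1 hairpin, and 2 of these differed between ages. For miR-92a, the 3p strand exceeded miR-92a-1-5p by a log2 ratio of 1.93 ± 0.466 at day 8 and 0.72 ± 0.191 at day 0 (SD, n = 6 each; difference 1.21, exact permutation adjusted p = 0.00749). The 5p strand thus made up 20.8% ± 4.97 of the reads of both strands at day 8 and 37.7% ± 3.11 at day 0 (SD, n = 6 each). The lowest day 0 library, at 33.5%, lay above the highest day 8 library, at 26.0%. The 3p strand is read from both loci and miR-92a-1-5p from chromosome 14 alone. miR-92a-2-5p, from the other locus, was all but absent, yet reads of a 5p strand do not show how much 3p its locus makes. The part of the X chromosome locus in this ratio and in these shares was not tested. For miR-20a, the log2 ratio of 5p over 3p was 8.94 ± 0.140 at day 8 and 9.52 ± 0.192 at day 0 (SD, n = 6 each; difference -0.58, exact permutation adjusted p = 0.00749), the opposite direction: the abundant strand fell more. Here the 3p strand made up 0.186% ± 0.0181 of the reads of both strands at day 8 and 0.131% ± 0.0186 at day 0 (SD, n = 6 each). These shares, to which no pseudocount was added, overlapped between the ages, with a lowest day 8 value of 0.159% and a highest day 0 value of 0.161%.

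The other tested hairpins did not pass. For miR-17 the log2 ratio of 5p over 3p was 3.38 ± 0.339 at day 8 and 3.42 ± 0.276 at day 0 (SD, n = 6 each; exact permutation adjusted p = 0.870). For miR-18a it was 7.15 ± 0.578 at day 8 and 6.98 ± 0.263 at day 0 (SD, n = 6 each; exact permutation adjusted p = 0.575), and the sign of this difference depended on the pseudocount (-0.47 when 5 CPM were added in place of 1). The miR-19 hairpins were looked at after the values were seen and were not tested. miR-19b-3p over miR-19b-1-5p stood at 8.94 ± 0.521 at day 8 and 8.00 ± 0.281 at day 0, and miR-19a-3p over miR-19a-5p at 8.39 ± 0.455 at day 8 and 7.98 ± 0.179 at day 0 (log2 ratio, SD, n = 6 each). For both, the ages overlapped, and day 8 replicate 3 held the lowest day 8 ratio.

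**Figure D4:**
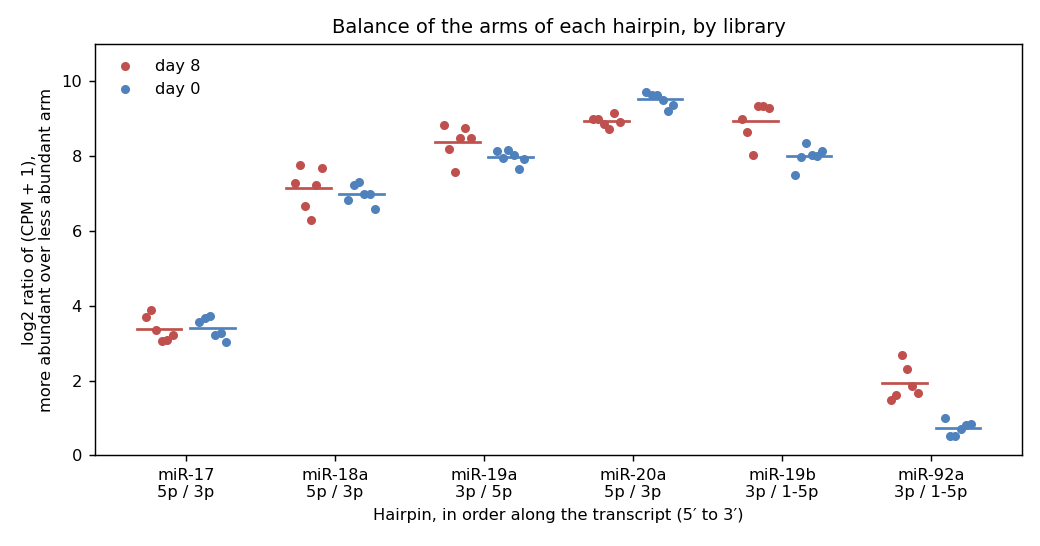
Log2 ratio of (CPM + 1) of the more abundant over the less abundant strand of each hairpin in the 6 day 8 libraries (red, left) and the 6 day 0 libraries (blue, right), with lines at the means. On this scale the ages part for miR-20a, which is lower at day 8, and for miR-92a, which is higher at day 8; without the added 1 CPM the ages overlap for miR-20a.

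The third comparison set cluster members beside relatives that carry the same seed but come from other loci. The relatives of miR-17-5p are shown because they differ from it by few bases, so that reads could be assigned to the wrong name.
miR-17-5p: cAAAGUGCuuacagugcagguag
miR-106a-5p: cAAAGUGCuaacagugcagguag
miR-20b-5p: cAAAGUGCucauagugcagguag
miR-93-5p: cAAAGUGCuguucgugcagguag
miR-106b-5p: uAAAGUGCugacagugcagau
miR-17-5p and miR-106a-5p differ by a single base, U10A (miR-17-5p first, counted from 1 at the 5′ end). miR-106a-5p and miR-20b-5p belong to the miR-106a-363 cluster on the X chromosome. miR-93-5p, miR-106b-5p and miR-25-3p belong to the miR-106b-25 cluster, which lies in an intron of the replication gene Mcm7.

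In 8 of the 9 pairs the ratio of the cluster member to its relative was lower at day 8 (two-sided exact permutation test, adjusted over the 9 pairs), and in 6 of these the ages did not overlap. How often the ratio of a member to an unrelated name differs was not tested. Of all names, 64.7% were called between the ages. The median log2 change was -1.34 for the members and -0.34 for all names. The count is thus not by itself a trait of same-seed pairs. Of the 9 pairs, the contrast was largest between miR-92a-3p and miR-32-5p, a single-locus miRNA of the same seed family. Their log2 ratio was -2.37 ± 0.910 at day 8 and -0.26 ± 0.463 at day 0 (SD, n = 6 each), the widest spread of the 9 pairs. The difference was -2.11 (exact permutation adjusted p = 0.00325). The 2 names differ in GC content (57.1% and 31.8%), and the part of this was not tested. miR-32-5p itself was higher at day 8, at 649 ± 208 CPM against 397 ± 77.3 CPM at day 0 (SD, n = 6 each; log2 change 0.66, limma adjusted p = 0.0117). Its ages overlapped, from 334 to 964 CPM at day 8 and from 333 to 521 CPM at day 0. miR-20a-5p over miR-20b-5p had a log2 ratio of 3.75 ± 0.391 at day 8 and 5.34 ± 0.116 at day 0 (SD, n = 6 each; difference -1.59, exact permutation adjusted p = 0.00325).

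miR-18a-5p over miR-18b-5p had a log2 ratio of 2.48 ± 0.295 at day 8 and 3.66 ± 0.180 at day 0 (SD, n = 6 each; difference -1.18, exact permutation adjusted p = 0.00325). miR-17-5p differed by -1.06 against miR-106a-5p and by -0.95 against miR-106b-5p (exact permutation adjusted p = 0.00325 for both), and miR-92a-3p differed by -1.40 against miR-363-3p (exact permutation adjusted p = 0.00325). The differences were smaller against the abundant strands of miR-106b-25. miR-92a-3p over miR-25-3p differed by -0.69 (exact permutation adjusted p = 0.0195) and miR-20a-5p over miR-93-5p by -0.57 (exact permutation adjusted p = 0.00557), both with overlap between ages. miR-17-5p over miR-93-5p did not pass (-0.27, exact permutation adjusted p = 0.177). The 9 pairs share members, so they are not independent.

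**Figure D5:**
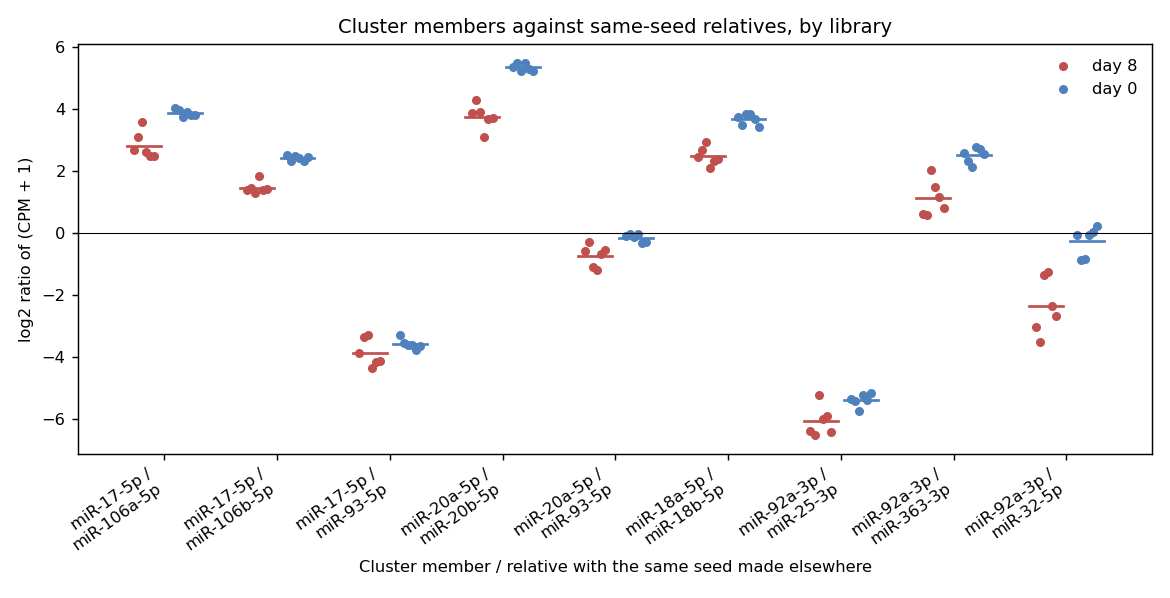
Log2 ratio of (CPM + 1) of a cluster member over a same-seed relative in the 6 day 8 libraries (red, left) and the 6 day 0 libraries (blue, right), with lines at the means. The day 8 libraries lie below all day 0 libraries in 6 of the 9 pairs and overlap them in the 3 pairs with miR-93-5p or miR-25-3p.

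Counted by cluster, 0 of the 5 tested strands of miR-106a-363 were lower and 0 higher at day 8 (limma over all names), with a median log2 change of -0.18, while the other 5 of its 10 names did not reach the minimum CPM. At an unadjusted p under 0.05 its miR-18b-5p counted as lower, at 91.2 ± 11.3 CPM at day 8 and 111 ± 16.2 CPM at day 0 (SD, n = 6 each), and with TMM factors miR-20b-5p (log2 change 0.44) and miR-363-3p (0.33) were higher. With upper quartile factors 3 of the 5 were higher, miR-106a-5p (0.38), miR-20b-5p (0.62) and miR-363-3p (0.51). Over all names tested, 48.2% were lower and 16.5% higher on CPM. With TMM factors these shares were 34.2% and 30.3%, and with upper quartile factors 27.8% and 37.8%. Of the 6 strands of miR-106b-25, 5 fell and 0 rose (median log2 change -0.86), with TMM factors 5 fell (median -0.47), and with upper quartile factors 4 fell (median -0.30). Its miR-93-5p was at 9329 ± 1220.3 CPM at day 8 and 18139 ± 1162 CPM at day 0 (SD, n = 6 each; log2 change -0.97, limma adjusted p = 1.92e-07). Its miR-106b-5p, at 242 ± 84.3 CPM at day 8 and 283 ± 10.8 CPM at day 0 (SD, n = 6 each), was the 1 that did not pass (log2 change -0.29, limma adjusted p = 0.164), while its partner strand miR-106b-3p fell (log2 change -1.27, limma adjusted p = 1.56e-06). The largest fall in miR-106b-25 was that of miR-25-5p (log2 change -1.65, limma adjusted p = 2.24e-06), against -0.76 for miR-25-3p (limma adjusted p = 1.63e-07). miR-25-5p was low, from 3 to 25 reads a library at day 8 and 26 to 66 at day 0.

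Outside the cluster, the names whose profile over the 12 libraries lay nearest to the mean of miR-17-5p, miR-18a-5p, miR-19a-3p and miR-20a-5p were miR-214-5p, miR-7b-5p, miR-450b-3p, miR-708-5p and miR-322-3p. Likeness was the root mean square difference of log2(CPM + 1), each centred over the 12 libraries, among 207 other names with a mean CPM of at least 100. It was 0.104 for miR-214-5p, which was at 111 ± 15.1 CPM at day 8 and 231 ± 19.2 CPM at day 0 (SD, n = 6 each), and 0.130 for miR-7b-5p, 0.181 for miR-450b-3p, 0.189 for miR-708-5p and 0.214 for miR-322-3p. All 5 were lower at day 8, with log2 changes from -1.21 to -0.93. This follows from the choice and is no separate result, because the profile they were matched to is itself lower at day 8. Of the 4 strands averaged, miR-18a-5p lay 0.203 from their mean and miR-19a-3p 0.483, so 4 of the outside names lay nearer to the mean than miR-18a-5p did. That mean blends miR-19a-3p (log2 change -0.32) with miR-17-5p (-1.24), miR-18a-5p (-1.45) and miR-20a-5p (-1.54). Nearness to it is thus not likeness to any single strand of the cluster.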

How the data were processed

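Small RNA was sequenced from WT mouse kidneys at day 8 and day 0. Per the labels' protocols, RNA came from the NucleoSpin miRNA kit and library preparation used QIAGEN's QIAseq miRNA kit. The submitters' processing notes name FastQC. Aligner, miRNA annotation, genome build and any use of molecular identifiers were not given in the sources used here. The authors deposited CPM values for 1652 mature names, summing to 1000000 in each library. Within a library they are whole multiples of 1 read (100.0% within 0.001 of a read), so reads were recovered, and read numbers speak of counting error alone. All libraries were distinct (lowest chi-square per degree of freedom within an age 50.9). Age groups follow the age label, and replicate numbers follow accession order.

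The unit being CPM, limma-trend (limma 3.58.1 in R 4.3.3) was fitted to log2(CPM + 1) over the 564 names that reached 1 CPM in 6 or more libraries, with Benjamini-Hochberg adjustment and a threshold of 0.05. A log2 change is day 8 minus day 0; it understates the change of low names. Ratios used exact permutation. The scripts were tested on simulated data. Named miRNAs are the members, the other strands of the transcript, the paralogs, miR-32-5p, and the 5 nearest profiles. edgeR 4.0.16, DESeq2 1.42.0, limma-voom, other scalings, filters and pseudocounts, and left-out libraries were alternatives; leaving out day 0 replicate 6 with day 8 replicate 3 was added after seeing the data. The members, lists and tests were chosen with earlier results of these data known.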

Additional observations from a re-analysis of the deposited data

How the results depend on the processing

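Every alternative was run. The count of lower members was 9 in the main test and 8 or 9 under each alternative, and 0 were higher in each; leaving out a library gave 9 each time. It was 8 where miR-18a-3p was filtered out, and under edgeR, DESeq2, TMM and upper quartile factors, where miR-19b-3p was not called (log2 change -0.086 with edgeR, -0.044 with DESeq2). miR-19b-3p turned to 0.066 with upper quartile factors. miR-19a-3p, not called in the main test, turned to 0.10 with edgeR, 0.15 with DESeq2, 0.065 with TMM factors and 0.25 with upper quartile factors, passing in none. The scaling itself moves the median of all names from -0.34 to -0.0034 (TMM) and 0.14 (upper quartile). The other 8 members kept direction and call wherever they were tested. Differing member pairs numbered 20 with a pseudocount of 5, 26 with 0.1, 28 by limma, 30 without day 0 replicate 6 and day 8 replicate 3, and from 16 to 30 with a library left out. Same-family pairs numbered 8 under each alternative. Ratios with miR-18a-3p, the shallowest member, are limited by depth: 5 of them changed sign with a pseudocount of 5. No paired analysis was possible because the labels give no shared replicate numbers.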
